A study of Mus musculus with 8 samples.

Results

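Circular RNAs (circRNAs), closed loops formed by back-splicing of exons, are described here for host genes of membrane trafficking, those whose symbol names a sorting nexin (Snx29 left out), a Vps protein, an exocyst, COG or TRAPP subunit, an AP adaptor subunit, Picalm, Eps15 or Eps15l1, an intersectin, a numbered syntaxin, a COPI subunit or a COPII-related Sec protein, a Wdfy protein, Sorl1 or Sort1. The rule reads symbols and no measured value, but it and its exception, Snx29, were drawn up with earlier results of these data known, and the exception bears on the counts given here. They numbered 153 of the 6315 listed circRNAs and came from 58 of 2841 host genes. Counts were compared in mouse kidney total RNA from 3 control libraries, 2 acute-chronic (AC) libraries and 3 libraries of unilateral ureteral obstruction (UUO), a ligation model of tubular injury and fibrosis. All animals were labelled as strain C57BL/6L and aged 8 to 10 weeks, with no transgene or drug named. The AC and UUO titles give day 5; the controls are titled wild type, while the series' design text mentions sham-operated controls and an ischaemia/reperfusion group where the sample labels have AC. No label says that the libraries came from separate animals, so the p-values here cover no more than the spread from library to library, and that spread may be technical.

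Membrane trafficking moves receptors, transporters and secreted proteins between the plasma membrane, endosomes, lysosomes and the Golgi. Coat proteins such as clathrin with its AP adaptors, COPI and COPII bud the vesicles. Tethers such as the exocyst, GARP, HOPS, COG and TRAPP catch them, syntaxins drive fusion, and sorting nexins and sorting receptors return cargo from endosomes. In the kidney, proximal tubule cells depend on this machinery to retrieve filtered proteins and to place transporters at the apical membrane. Genes of this machinery can also give circRNAs, and the level of such a loop need not follow that of the linear messenger RNA, which is not analysed here.

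Total counts ran from 40865 to 65145 per library, and 1 count was worth between 18.9 and 29.2 CPM (counts brought to a common library size). No library was a duplicate of another: between replicates of a group the chi-square of the counts was 3.0 to 5.15 per degree of freedom. Tissue could be checked only in part: of 12 proximal tubule markers 2, Lrp2 and Slc4a4, had a listed circRNA, and the lists of collecting duct, fibroblast, macrophage, lymphocyte and neutrophil markers had none. Marker circRNAs that were listed did differ between groups. Of 77 marker genes 10 had a listed circRNA and 8 circRNAs were tested, of which 3 were higher and 2 lower in UUO and 2 higher and 2 lower in AC (edgeR, adjusted p under 0.05). Over all tested circRNAs 4.35% were called in UUO and 3.33% in AC. The marker lists were chosen with earlier results of these data known, so their calls are a description. The summed level of the injured tubule list, which rests on Dcdc2a alone, was 75.5 to 133 CPM in control, 2285 to 2479 CPM in AC and 3172 to 3569 CPM in UUO. That of the cell cycle list (Espl1, Bub1b and Top2a) was 372 to 434 CPM in control, 992 to 1414 CPM in AC and 1134 to 1573 CPM in UUO. That of the thick limb and distal list (Klhl3 and Wnk1) was 1985 to 2755 CPM in control, 400.5 to 933 CPM in AC and 406 to 747 CPM in UUO, and that of the proximal tubule list was 1622 to 3435 CPM, 1313 to 1555 CPM and 1197 to 1649 CPM. One Slc4a4 circRNA (mmu_circ_0012844) was called lower in AC. The part of such shifts in the values given here was not tested. In bulk kidney RNA, fewer cells of a type and less RNA per cell cannot be told apart.

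The trafficking circRNAs were mostly scarce. Together they held 8426 of 412332 counts, 2.04% of the total, and the median member had 16 counts over the 8 libraries against 14 for all listed circRNAs. A single count in 1 library was all there was for 20 members, while 20 had a total of 100 or more. Of a library's counts they made up 2.32%, 2.005% and 2.09% in the 3 controls, 1.99% and 2.02% in the AC pair, and 1.88%, 2.03% and 2.03% in the UUO libraries. The control mean was 2.14% ± 0.165 (SD, n = 3). The AC mean was 2.002% ± 0.0233 (SD, n = 2) and the UUO mean 1.98% ± 0.0889 (SD, n = 3). Control replicates 1 and 3 lay above every injured library, with replicate 1 the highest, and control replicate 2 lay within the injured range. Without control replicate 1 the difference from control was -0.0687 percentage points in UUO and -0.0475 in AC, in place of -0.16 and -0.139.

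Counts were concentrated in few members: the 8 highest by mean CPM came from Stx6, Snx12, Eps15l1, Picalm, Sorl1, Vps45, Vps13d and Snx5, and the 8 with the most counts held 40.6% of all member counts. Trafficking hosts tended to list several circRNAs. A single listed circRNA was found for 36.2% of these hosts against 52.8% of all hosts, with 2.64 circRNAs per host against 2.21. Trappc9, a TRAPP subunit acting at the Golgi, listed the most with 8, followed by Snx27 and Vps13b with 7 each. Of the 37 hosts with more than 1 listed circRNA, 30 had a leading circRNA with over 50% of the host's counts. An entry in the file's experimental-evidence column was present for 15.03% of members and 17.2% of all circRNAs.

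**Figure D1:**
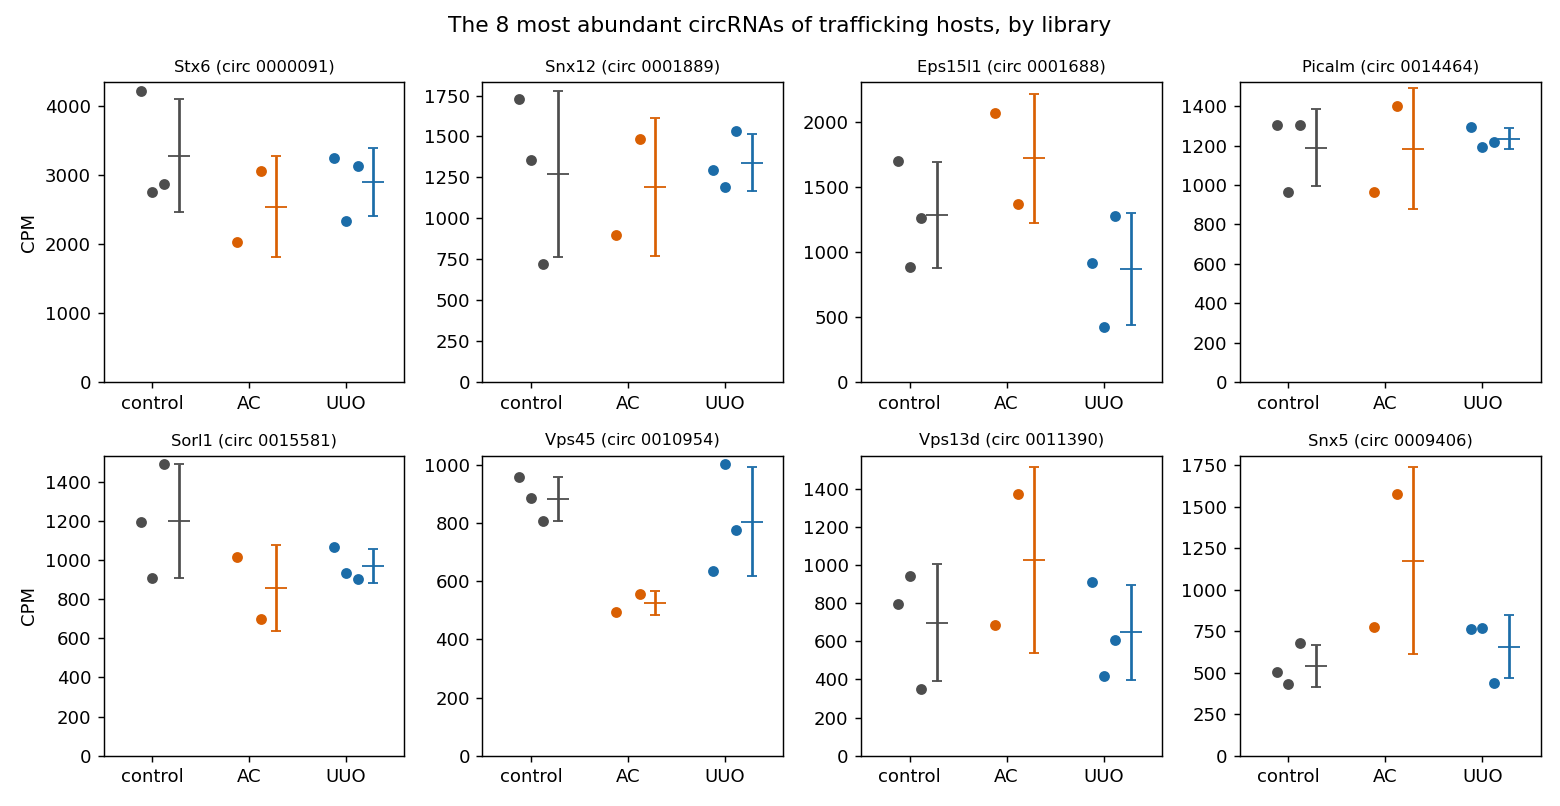
CPM of the 8 most abundant trafficking circRNAs (vertical axes, starting at 0) in control, AC and UUO libraries; points are libraries and the dash with bars is the group mean ± SD (n = 3, 2 and 3). In the Snx5 panel both AC points (777 and 1575) lie above the controls (434 to 682), and in the Vps45 panel both AC points (495 and 554) lie below the controls (806 to 957).

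Differences were tested across all circRNAs with edgeR's quasi-likelihood test on the counts, and p-values were adjusted by Benjamini-Hochberg over the 1471 circRNAs that passed a filter on low counts. Of the 153 members, 41 from 28 hosts passed that filter, 26.8% against 23.3% of all circRNAs. The filter keeps a circRNA with enough counts in as few libraries as the smallest group holds, so the 41 are the better covered members and do not stand for the rest; the lowest total among them was 56. For 12 of the 41 fewer than 2 libraries outside a single group reached the count minimum, so these passed only with that group. It was control for Vps53, Vps13a, Snx25, Vps45 (mmu_circ_0001151), Picalm (mmu_circ_0014461) and both Sec31a circRNAs. It was UUO for Vps54, Vps13b (mmu_circ_0005607), Cog5 and Itsn1, while Snx13 (mmu_circ_0003935) needed both AC and UUO. For a member high in that group, its difference from the other groups is a description.

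At an adjusted p under 0.05, 0 of the 41 differed in UUO against control, where 4.35% of all tested circRNAs did, and 0 differed in AC against control, where 3.33% of all tested did. In UUO against AC the count was 0 of 41, against 0% of all tested. An unadjusted edgeR p under 0.05 was found for 0, 4 and 2 members in these comparisons, against 15.5%, 14.1% and 5.57% of all tested circRNAs. Among these, Vps53 and Snx25 in AC against control and Vps54 in UUO against AC passed the filter only through the group where they were high. DESeq2 and limma-voom likewise called 0 in each comparison, with 0, 5 and 4 members at an unadjusted p under 0.05 in DESeq2 and 1, 2 and 1 in limma-voom. The share of all tested circRNAs at such a p was not computed for either method, so these numbers are not read as few or many. Snx29, a sorting nexin that the symbol pattern takes and the rule leaves out, is the exception to the counts of 0 called. Its main circRNA (mmu_circ_0006062) had 3988, 3095 and 3825 CPM in control, 1154 and 1342 CPM in AC and 1827, 1728 and 1049.8 CPM in UUO. Every injured library lay below every control, and the log2 fold change was -1.25 in UUO (SE 0.25, edgeR adjusted p = 0.0132) and -1.54 in AC (SE 0.30, adjusted p = 0.0114). With Snx29 counted in, 1 of 42 circRNAs was called in UUO and 1 of 42 in AC, so a count of 0 holds only for the set without it. The Snx29 call was lost in UUO without UUO replicate 2 or 3 (adjusted p = 0.062 and 0.0768) and in AC without AC replicate 1 or 2 (adjusted p = 0.0988 and 0.0521).

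The lowest edgeR adjusted p of a member was 0.427 in UUO against control, 0.1997 in AC against control and 0.816 in UUO against AC.

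The fitted log2 fold changes of the 41 ran from -1.29 to 1.11 in UUO against control, with 27 below 0 and a median of -0.22, where 49.4% of all tested circRNAs lay below 0 and their median was 0.016. In AC against control they ran from -2.75 to 1.29, with 29 below 0 and a median of -0.41, where 50.6% of all lay below 0 and their median was -0.015. Both comparisons share the 3 control libraries. These ranges and counts include the 12 of 41 members that passed the filter only with a single group. Those admitted through control lay below 0 in both comparisons, and those admitted through UUO lay above 0 in UUO. Both UUO extremes, Picalm (mmu_circ_0014461) and Itsn1, and the lowest AC value, Sec31a (mmu_circ_0011917), are among them. The counts are therefore in part set by the filter and are a description. Without overlap between groups, 1 member was higher and 2 were lower in UUO, against 13.3% and 11% of all tested. In AC 1 was higher and 8 were lower, against 15.4% of all tested in each direction. The member higher in UUO, Vps13b (mmu_circ_0005607), passed the filter only through UUO. Among the 8 lower in AC, Vps53, Snx25 and Sec31a (mmu_circ_0011917) passed only through control. A fitted difference of at least 2-fold was seen for 5 members in UUO, against 23.2% of all tested, and for 11 in AC, against 25.9%. Of the 5, Picalm (mmu_circ_0014461), Sec31a (mmu_circ_0011916) and Itsn1 passed only through the group where they were high. Of the 11, so did Vps53, Snx25, Vps45 (mmu_circ_0001151) and Sec31a (mmu_circ_0011917), while Snx13 (mmu_circ_0003935) needed AC and UUO. In UUO against AC 15 members lay below 0, against 46.9% of all tested. Without overlap 8 were higher and 2 lower, against 13.2% and 11.1%, and 8 members reached 2-fold, against 16.6%. Vps54 and Vps13b (mmu_circ_0005607), which passed only through UUO, are among the higher and among those at 2-fold.

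The precision limits what these zeros say. The 95% interval of the fold change, not adjusted for the number of tests, left out a 2-fold difference in both directions for 6 of 41 members in UUO and for 3 in AC. Among all 1471 tested circRNAs it did so for 181 and 116. A 4-fold difference was left out for 24 and 21 members, and for 843 and 729 of all tested. Of the other members, no statement about size beyond their intervals can be made at this depth.

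**Figure D2:**
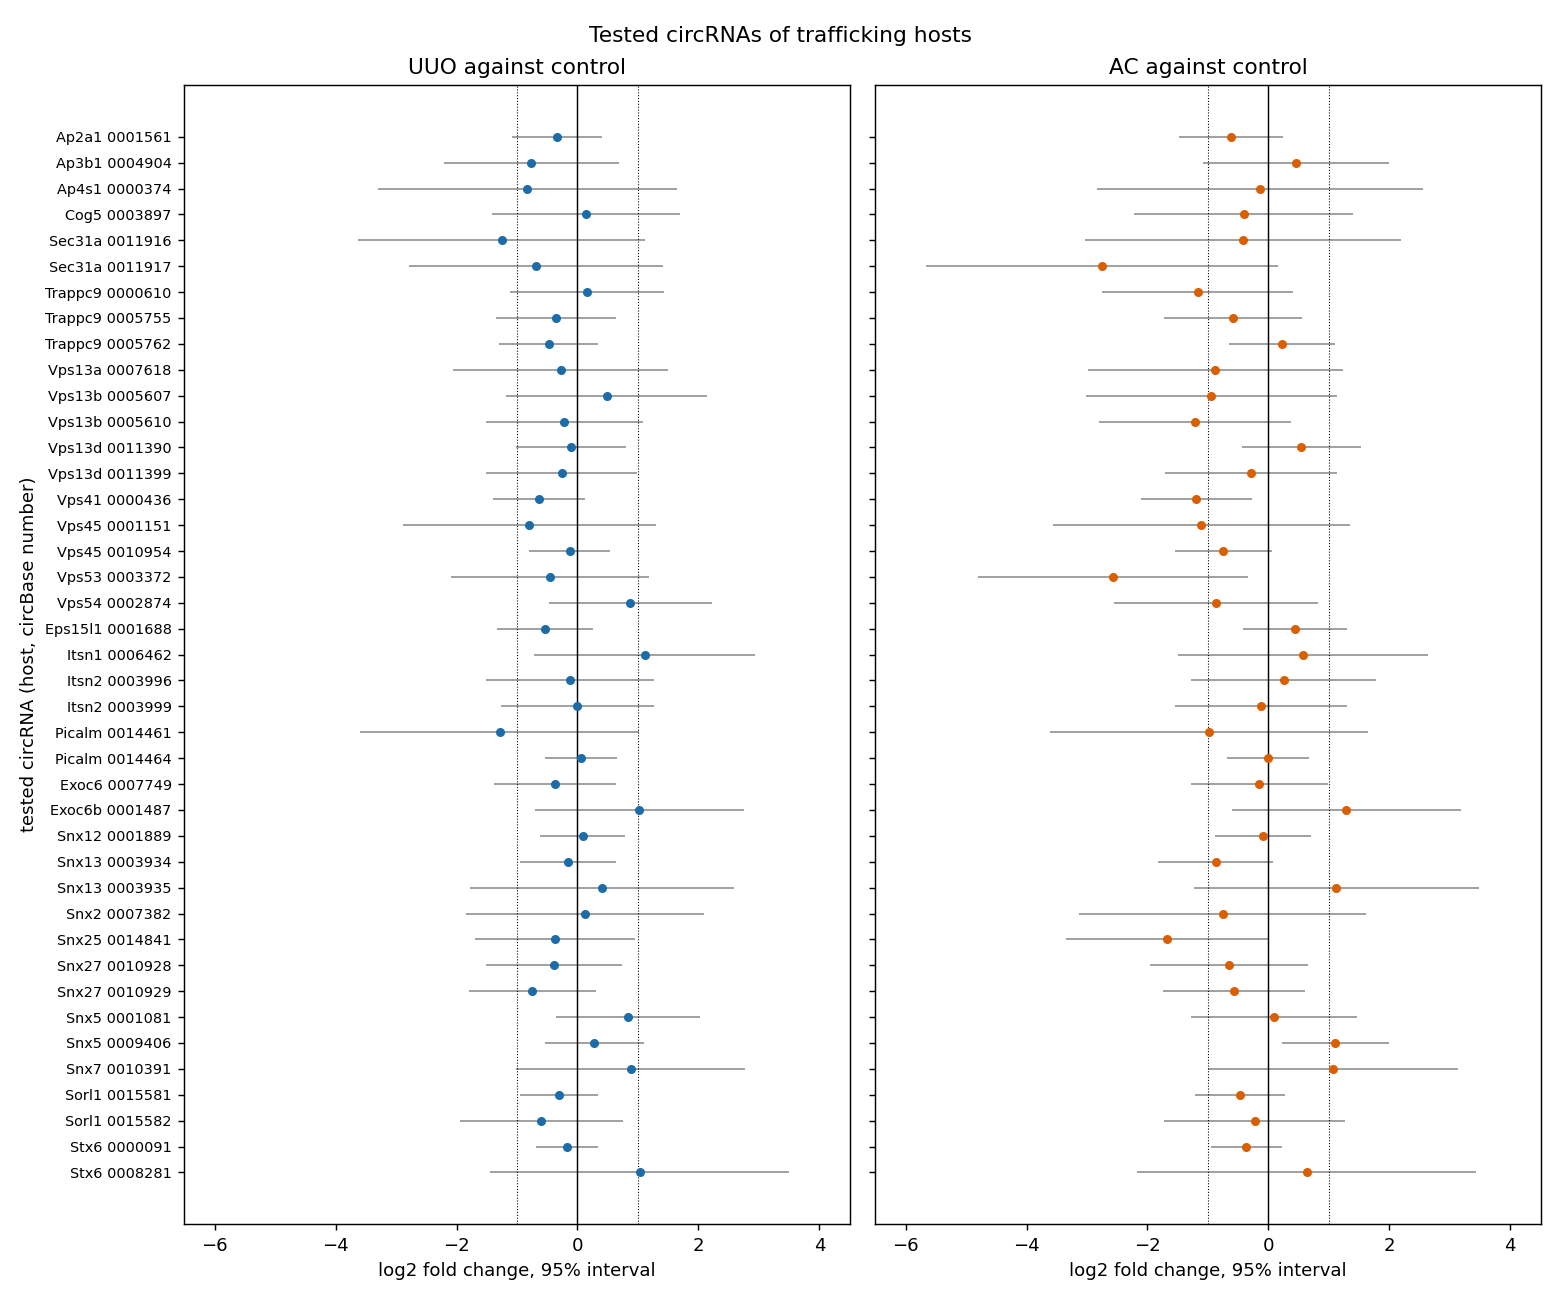
Fitted log2 fold change (horizontal axis) of the 41 tested trafficking circRNAs, 1 per line, against control in UUO (left) and AC (right); bars are 95% intervals and dotted lines mark 2-fold. Of 41 values 27 lie left of 0 in UUO and 29 in AC, with 0 intervals that leave out 0 in UUO and 4 in AC. The 41 include 12 members that passed the filter only with a single group.

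**Figure D3:**
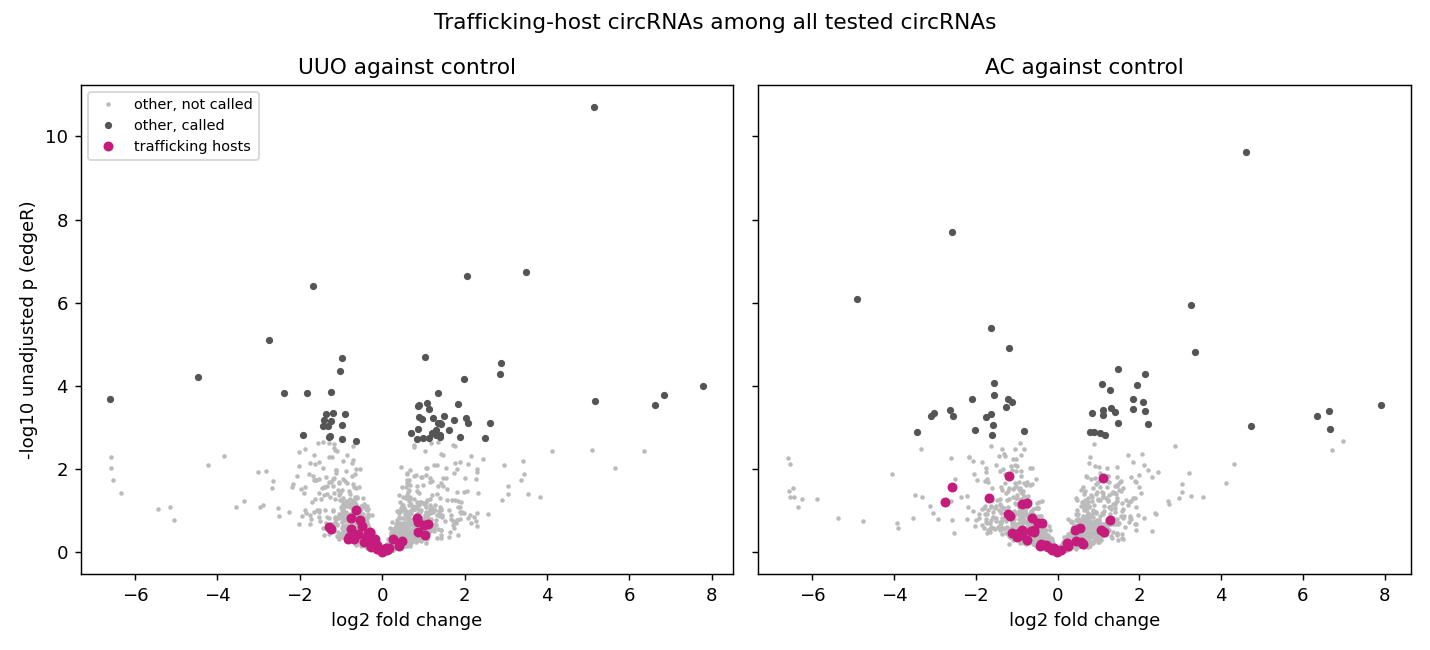
Log2 fold change (horizontal axis) and -log10 of the unadjusted edgeR p (vertical axis) of all 1471 tested circRNAs in UUO (left) and AC (right) against control; dark grey points passed the adjusted threshold and pink points are the 41 trafficking members. The pink points stay low, with lowest unadjusted p of 0.0978 in UUO and 0.0144 in AC.

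Sorting nexins bind phosphoinositides on endosomes, and several form the membrane coat of retromer and related recycling complexes. They made up the largest class by count, with 29 circRNAs of 10 hosts, 10 of them tested, and 22.2% of member counts. Their summed level was 5362 ± 566 CPM in control (SD, n = 3). It was 5426 ± 289 CPM in AC (SD, n = 2) and 5464 ± 553 CPM in UUO (SD, n = 3), so the class means lay within 1 SD of each other; Snx29, whose main circRNA alone had 3636 ± 476 CPM in control (SD, n = 3), is not in this sum. Of 10 tested nexin circRNAs 4 lay below 0 in UUO and 6 in AC, against 49.4% and 50.6% of all tested. Snx25, below 0 in both, passed the filter only through control. Snx13 (mmu_circ_0003935), above 0 in both, needed both AC and UUO to pass.

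The circRNA of Snx12 (mmu_circ_0001889), a small nexin of early endosomes, was the most abundant of the class. It had 1728, 1359 and 724 CPM in control, 895 and 1488 CPM in AC and 1294, 1191 and 1533 CPM in UUO. The control libraries alone spanned the range of both injured groups, and the log2 fold change was 0.086 in UUO (interval -0.61 to 0.79) and -0.093 in AC (interval -0.89 to 0.70).

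Snx5, a retromer-associated nexin with a membrane-bending BAR domain, listed 5 circRNAs. The leading one (mmu_circ_0009406) had 505, 434 and 682 CPM in control, 777 and 1575 CPM in AC and 761, 771 and 441 CPM in UUO. Both AC libraries lay above every control, while UUO overlapped control. The log2 fold change in AC was 1.11 (SE 0.42) and missed the threshold (edgeR adjusted p = 0.215). In UUO it was 0.28 (SE 0.39, adjusted p = 0.781), and the direct difference of UUO from AC was -0.83 (SE 0.41, adjusted p = 0.857). Summed over all 5 circRNAs, Snx5 had 1051, 713 and 869.8 CPM in control and 1304 and 1858 CPM in AC, a log2 fold change of 0.85 (SE 0.33, edgeR adjusted p = 0.20).

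Snx25, which carries a regulator-of-G-protein-signalling domain, had a circRNA (mmu_circ_0014841) with counts of 13, 28 and 18 in control, 7 and 3 in AC and 9, 28 and 4 in UUO. Both AC libraries lay below the controls and UUO spanned the whole range. Its log2 fold change in AC was -1.68 (SE 0.79, edgeR adjusted p = 0.353). This circRNA passed the filter only through control, where it was high, so that value is a description.

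The Snx7 circRNA (mmu_circ_0010391) had counts of 2, 14 and 4 in control, 23 and 1 in AC and 5, 9 and 20 in UUO. A circRNA of Snx13 (mmu_circ_0003935) had 5, 6 and 5 in control, 19 and 2 in AC and 2, 3 and 16 in UUO. In each, 1 library of an injured group was high and another of the same group was at or below the controls. Their fitted log2 fold changes in AC, 1.07 and 1.13, became -2.17 and -1.0 without AC replicate 1. In UUO the Snx7 value was 0.88 (SE 0.89, edgeR adjusted p = 0.700). The leading Snx13 circRNA (mmu_circ_0003934) went the other way in AC. It had 718, 661 and 786 CPM in control and 565 and 204 CPM in AC. Its log2 fold change in AC was -0.87 (SE 0.45, edgeR adjusted p = 0.410), and that of the Snx13 sum was -0.42 (SE 0.46, adjusted p = 0.718).

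Vps proteins cover several machines named from yeast vacuolar sorting mutants: Vps53 and Vps54 are subunits of the GARP tether that receives endosome-derived vesicles at the Golgi, Vps41 is a subunit of the HOPS tether of late endosomes and lysosomes, Vps45 is a partner of syntaxins, and the Vps13 proteins carry lipids between organelles. The class held 33 circRNAs of 12 hosts, 10 tested, and 20.5% of member counts. Its summed level was 5583, 5341 and 5458 CPM in control, 3392 and 4784 CPM in AC and 4974, 5161 and 5186 CPM in UUO. Every injured library lay below every control library, and AC replicate 1 lay lowest. The same split of libraries held for the thick limb and distal markers (400.5 to 933 CPM in AC and 406 to 747 CPM in UUO, against 1985 to 2755 CPM in control) and, the other way, for Dcdc2a (at least 2285 CPM against at most 133 CPM) and the cell cycle markers (at least 992 CPM against at most 434 CPM); their part in the level of the Vps class was not tested. Of its 10 tested circRNAs 9 lay below 0 in AC (median log2 value -0.91) and 8 in UUO (median -0.24). Over all tested circRNAs 50.6% lay below 0 in AC and 49.4% in UUO. Vps53, Vps13a and Vps45 (mmu_circ_0001151) passed the filter only through control and lay below 0 in both. Vps54 and Vps13b (mmu_circ_0005607) passed only through UUO and lay above 0 there. These class counts are therefore in part set by the filter. As for every class, the members were chosen with earlier results of these data known, so no test of the class is given.

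The Vps41 circRNA (mmu_circ_0000436) had 1010.3, 1132 and 848 CPM in control, 353 and 525 CPM in AC and 482, 957 and 483 CPM in UUO. Both AC libraries and UUO replicates 1 and 3 were below the controls, and UUO replicate 2 was within them. The log2 fold change was -1.19 in AC (SE 0.44, edgeR adjusted p = 0.1997) and -0.64 in UUO (SE 0.36, adjusted p = 0.427). This was the member closest to the threshold in both comparisons with control. With DESeq2 its adjusted p in AC was 0.0982.

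The main circRNA of Vps45 (mmu_circ_0010954) had 957, 887 and 806 CPM in control, 495 and 554 CPM in AC and 634, 1004 and 777 CPM in UUO. AC lay below control without overlap and UUO overlapped it. The log2 fold change was -0.75 in AC (SE 0.38, edgeR adjusted p = 0.389) and -0.13 in UUO (SE 0.32, adjusted p = 0.901). The other tested Vps45 circRNA (mmu_circ_0001151) had 9, 8 and 16 counts in control, 9 and 0 in AC and 3, 8 and 7 in UUO, with a log2 fold change of -0.79 in UUO (SE 0.99, adjusted p = 0.762). That circRNA passed the filter only through control, where it was high, so its value is a description.

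Both GARP hosts had low counts. The main Vps53 circRNA (mmu_circ_0003372) had 7, 25 and 13 counts in control, 4 and 0 in AC and 15, 5 and 9 in UUO. Its log2 fold change in AC was -2.57 (SE 1.06, edgeR adjusted p = 0.271), and the direct difference of UUO from AC was 2.12 (SE 1.06, adjusted p = 0.857). This circRNA passed the filter only through control, where it was high, so its AC value against control is a description. Summed over its 3 circRNAs, Vps53 had 8, 25 and 14 counts in control, 4 and 0 in AC and 19, 10 and 16 in UUO. At the host level its log2 fold change was -2.66 in AC against control (SE 0.93, edgeR adjusted p = 0.143) and 2.70 in UUO against AC (SE 0.93, adjusted p = 0.765). The main Vps54 circRNA (mmu_circ_0002874) had 10, 8 and 9 counts in control, 2 and 6 in AC and 17, 18 and 12 in UUO. UUO lay above AC without overlap, with a log2 difference of 1.74 (SE 0.79, edgeR adjusted p = 0.857). This circRNA passed the filter only through UUO, where it was high, so the difference is a description.

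The leading Vps13d circRNA (mmu_circ_0011390) had 798, 944 and 351 CPM in control, 683 and 1371 CPM in AC and 914, 420.3 and 609 CPM in UUO, with log2 fold changes of 0.55 in AC (SE 0.47) and -0.11 in UUO (SE 0.43). Without AC replicate 2 the AC value was -0.053. The leading Vps13b circRNA (mmu_circ_0005610) had 6, 14 and 24 counts in control and 5 and 5 in AC, a log2 fold change of -1.22 (SE 0.75, edgeR adjusted p = 0.536). Another (mmu_circ_0005607) had 9, 12 and 9 counts in control, 0 and 8 in AC and 10, 11 and 19 in UUO, and UUO lay above AC by 1.43 on the log2 scale (SE 0.98, adjusted p = 0.913). This one passed the filter only through UUO, where it was high, so the difference is a description. Summed over 7 circRNAs, Vps13b had 538, 713 and 1102 CPM in control, 369.6 and 419 CPM in AC and 698, 707 and 951 CPM in UUO. The host-level log2 fold change was -0.999 in AC against control (SE 0.43, edgeR adjusted p = 0.276) and 0.997 in UUO against AC (SE 0.44, adjusted p = 0.797).

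Sorting receptors carry cargo between Golgi and endosomes. Sorl1 listed 4 circRNAs and Sort1 a single one with 1 count in all. The leading Sorl1 circRNA (mmu_circ_0015581) had 1196, 906 and 1489 CPM in control, 1013 and 700.1 CPM in AC and 1066, 934 and 903 CPM in UUO. The groups overlapped, with log2 fold changes of -0.47 in AC (interval -1.21 to 0.27, edgeR adjusted p = 0.631) and -0.31 in UUO (interval -0.95 to 0.34, adjusted p = 0.696).

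Clathrin accessory proteins help to shape and load clathrin-coated pits. The class held 14 circRNAs of 5 hosts, 6 tested, and 14.7% of member counts. Picalm, which links clathrin to membranes and sorts SNAREs, listed 5. Its leading circRNA (mmu_circ_0014464) had 1303, 963 and 1303 CPM in control, 966 and 1400.2 CPM in AC and 1294, 1191 and 1218 CPM in UUO. This was among the steadiest members, and its interval left out a 2-fold difference in both directions in UUO (log2 -0.54 to 0.65) and in AC (-0.68 to 0.66). A minor one (mmu_circ_0014461) had 13, 6 and 15 counts in control, 0 and 9 in AC and 7, 3 and 3 in UUO. Its log2 fold change of -1.29 was the lowest among members in UUO (SE 1.09, edgeR adjusted p = 0.630). This minor circRNA passed the filter only through control, where it was high, so that value is a description. Summed over the host, Picalm had log2 fold changes of -0.12 in UUO (SE 0.29) and -0.096 in AC (SE 0.33).

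Eps15l1, an endocytic scaffold that binds AP-2, had nearly all its counts in 1 circRNA (mmu_circ_0001688). It had 1702, 887 and 1261 CPM in control, 2073 and 1371 CPM in AC and 914, 420.3 and 1281 CPM in UUO. All 3 UUO libraries lay below both AC libraries, and both groups overlapped control. UUO differed from AC by -0.98 on the log2 scale (SE 0.41, edgeR adjusted p = 0.816), and the log2 fold changes against control were -0.54 in UUO (SE 0.38) and 0.44 in AC (SE 0.41). The Itsn1 circRNA (mmu_circ_0006462), from an intersectin scaffold of coated pits, had 8, 6 and 8 counts in control, 13 and 6 in AC and 0, 28 and 19 in UUO. UUO replicate 1 was the lowest library and the other 2 UUO libraries were the highest. It passed the filter only through UUO, and its log2 fold change of 1.11 was the highest among members there (SE 0.86, adjusted p = 0.585).

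AP adaptors select cargo for clathrin-coated and other vesicles. The class held 11 circRNAs of 6 hosts, 3 tested. The Ap2a1 circRNA (mmu_circ_0001561), from the alpha subunit of the plasma membrane adaptor AP-2, had 638, 1038 and 806 CPM in control, 448 and 642 CPM in AC and 685, 490.4 and 798 CPM in UUO. The groups overlapped, with log2 fold changes of -0.62 in AC (SE 0.41, edgeR adjusted p = 0.576) and -0.34 in UUO (SE 0.35, adjusted p = 0.706). The leading Ap3b1 circRNA (mmu_circ_0004904), from a subunit of the adaptor for lysosome-related cargo, had 6, 25 and 11 counts in control, 20 and 11 in AC and 3, 15 and 4 in UUO, and UUO differed from AC by -1.21 on the log2 scale (SE 0.75, adjusted p = 0.881). The Ap4s1 circRNA (mmu_circ_0000374) had 7, 14 and 9 counts in control, 16 and 0 in AC and 4, 11 and 0 in UUO. Its log2 fold change in UUO was -0.83 (SE 1.17, adjusted p = 0.781), with 1 library at 0 in each injured group.

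Syntaxins are membrane SNAREs. Stx6, a syntaxin of the trans-Golgi network and endosomes, gave the most abundant member (mmu_circ_0000091), with 1012 counts and rank 54 of 6315 circRNAs. It had 4227, 2755 and 2874 CPM in control, 2026 and 3063 CPM in AC and 3248, 2335 and 3128 CPM in UUO. Control replicate 1 was highest and AC replicate 1 lowest, and all groups overlapped. With the most counts it also had the narrowest intervals, log2 -0.69 to 0.34 in UUO and -0.96 to 0.22 in AC, around values of -0.17 and -0.37. A minor Stx6 circRNA (mmu_circ_0008281) was uneven within groups, with 0, 18 and 2 counts in control, 3 and 12 in AC and 20, 0 and 15 in UUO; its log2 fold change in UUO was 1.03 (SE 1.17, edgeR adjusted p = 0.737). Summed over the host, Stx6 had log2 fold changes of -0.14 in UUO (SE 0.24) and -0.34 in AC (SE 0.28). Stx8, Stx12, Stx17 and Stx1a had no tested circRNA.

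**Figure D4:**
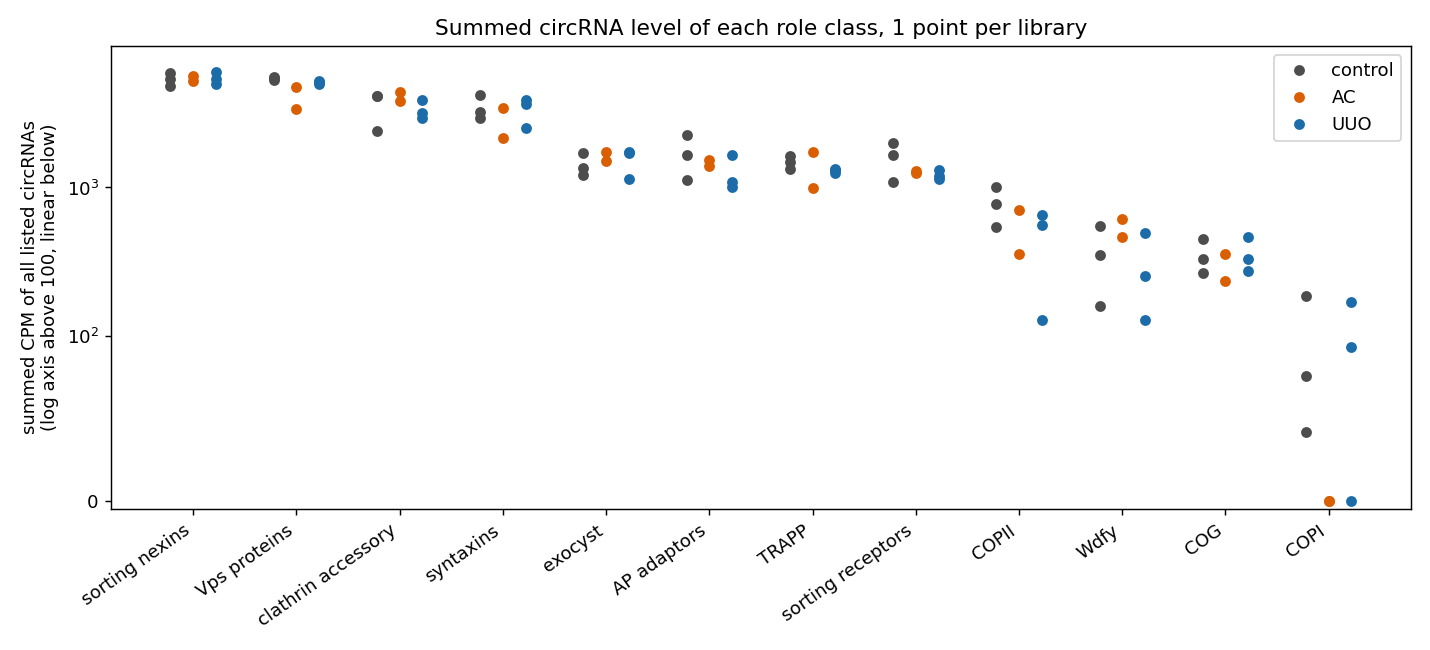
Summed CPM of all listed circRNAs of each role class (vertical axis, logarithmic above 100 and linear below) in each library; grey points are control, orange AC and blue UUO. The Vps class has all injured libraries (3392 to 5186) below all controls (5341 to 5583), while the sorting nexins overlap between groups.

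The exocyst tethers secretory vesicles to the plasma membrane. The class held 20 circRNAs of 6 hosts, of which 2 were tested. The main Exoc6 circRNA (mmu_circ_0007749) had 399, 472 and 682 CPM in control, 306 and 642 CPM in AC and 178, 467 and 546 CPM in UUO, with log2 fold changes of -0.37 in UUO (SE 0.48) and -0.15 in AC (SE 0.53). The Exoc6b circRNA (mmu_circ_0001487) had 0, 15 and 5 counts in control, 11 and 14 in AC and 12, 8 and 16 in UUO. Control replicate 2 overlapped both injured groups, and the log2 fold changes were 1.29 in AC (SE 0.89, edgeR adjusted p = 0.597) and 1.02 in UUO (SE 0.82, adjusted p = 0.597).

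Exoc5 and Exoc4 reached the test only when their circRNAs were summed, and are named here after their values were seen. Exoc5 had 6, 0 and 4 counts in control, 0 and 3 in AC and 8, 15 and 22 in UUO. All UUO libraries lay above control. Exoc5 reached the count minimum in 2 libraries, both of UUO, so it was tested only through the group where it is high and had to differ; its fold changes are a description. The host-level log2 fold change was 2.05 in UUO against control (SE 1.05) and 2.95 in UUO against AC (SE 1.35), and neither was called. Exoc4 had 6, 27 and 4 counts in control, 14 and 2 in AC and 1, 4 and 5 in UUO, a log2 fold change of -1.77 in UUO (SE 0.98, adjusted p = 0.338), with control replicate 2 alone above 6 counts among controls. Exoc4 would not have reached the test without control, so this value is a description too.

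The TRAPP tether acts early in the secretory pathway. Trappc9 was the host with the most tested circRNAs, 3 of 8. Its leading one (mmu_circ_0005762) had 718, 547 and 662 CPM in control, 989 and 496 CPM in AC and 355, 490.4 and 525 CPM in UUO. All UUO libraries lay below the controls, and AC spanned the control range. The log2 fold change was -0.48 in UUO (SE 0.38, edgeR adjusted p = 0.597) and 0.23 in AC (SE 0.42, adjusted p = 0.862). Summed over the host, the values were -0.23 in UUO (SE 0.30) and -0.22 in AC (SE 0.34).

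Within Trappc9 the leading circRNA held 44.3%, 43.3% and 50.8% of the host's counts in control, 62.7% and 58.6% in AC and 28%, 38.9% and 44.6% in UUO. The AC shares were the highest of all libraries, and the UUO shares overlapped control. These shares rest on 29 to 67 counts per library and are a description. Stx6 was far more one-sided, with 86.5% to 100% of its counts in the leading circRNA in each library, and Picalm had 74.2% to 94.4%. In Snx5 the leading share ran from 42.0% to 76.1% and in Vps13d from 36.2% to 83.3%. The Vps13d controls alone spanned its whole range. The Snx5 controls ran from 44.2% to 73.3%, with the lowest share in UUO replicate 3 and the highest in AC replicate 2.

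**Figure D5:**
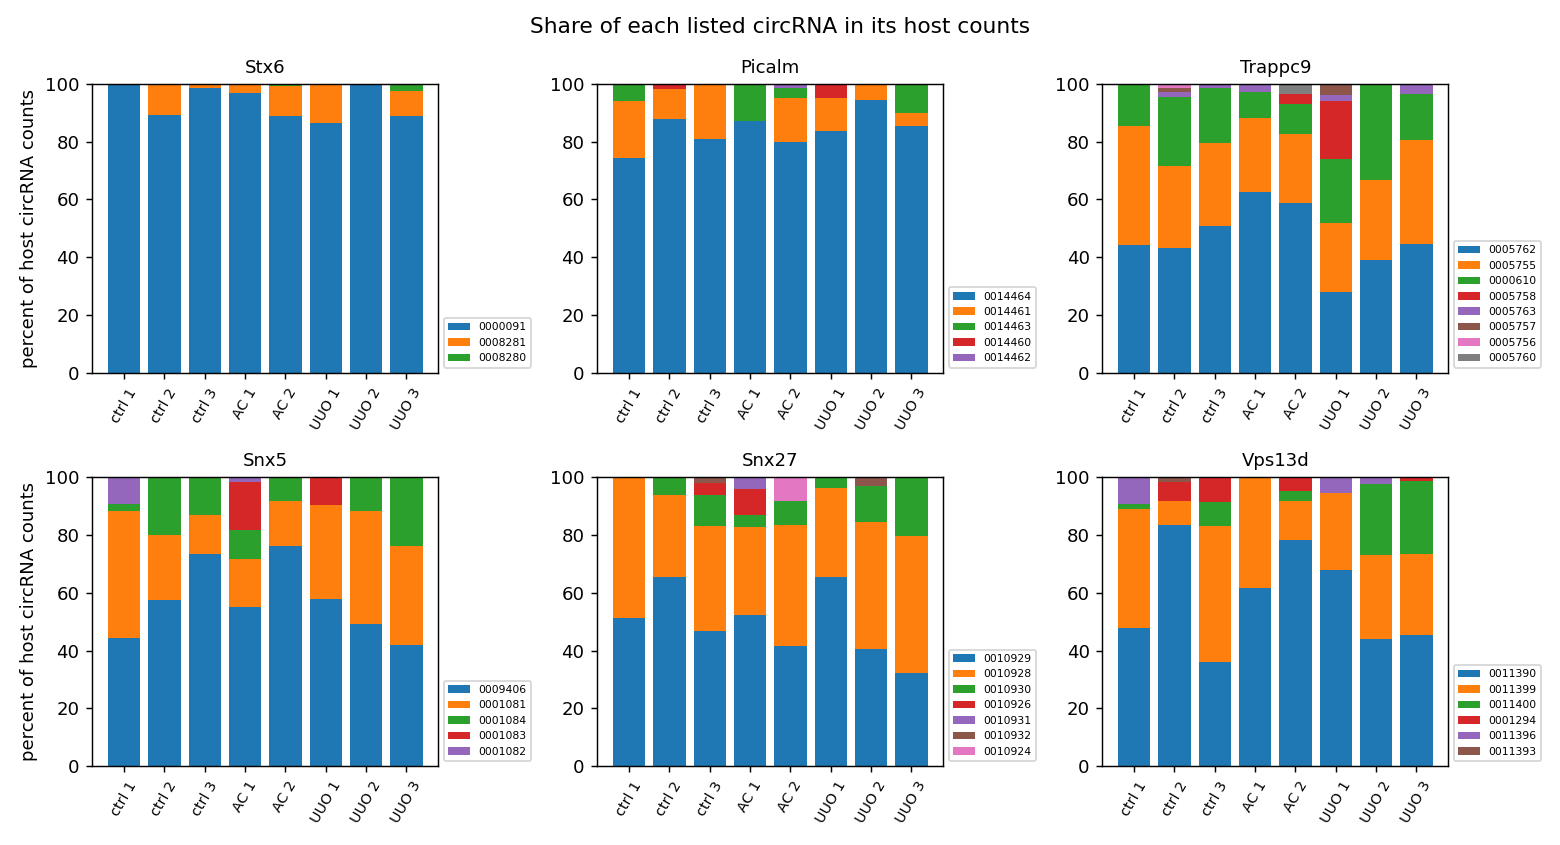
Percent of a host's circRNA counts (vertical axis, 0 to 100) held by each listed circRNA, 1 bar per library, for 6 hosts; colours are circRNAs named by circBase number. Stx6 keeps 1 circRNA at 86.5% or more throughout, whereas the leading share of Vps13d runs from 36.2% to 83.3%.

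The remaining coats and tethers had few counts. COPII coats vesicles leaving the endoplasmic reticulum, and its outer-coat gene Sec31a had 2 tested circRNAs. The first (mmu_circ_0011916) had 9, 22 and 7 counts in control, 0 and 14 in AC and 0, 4 and 11 in UUO. The second (mmu_circ_0011917) had 12, 10 and 18 in control, 0 and 3 in AC and 0, 14 and 10 in UUO. Both were at 0 in AC replicate 1 and in UUO replicate 1, and neither was at 0 in another library. The log2 fold changes of the first were -1.25 in UUO (SE 1.12) and -0.42 in AC (SE 1.23), and without AC replicate 1 the AC value was 0.56. That of the second was -2.75 in AC (SE 1.38, edgeR adjusted p = 0.380), the lowest of all members there, and UUO differed from AC by 2.06 (SE 1.38, adjusted p = 0.907). Both Sec31a circRNAs passed the filter only through control, where they were high, so their values against control are a description.

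Cog5, a subunit of the COG tether of the Golgi, had 10, 10 and 8 counts in control, 8 and 4 in AC and 10, 14 and 5 in UUO for its tested circRNA (mmu_circ_0003897), with log2 fold changes of 0.15 in UUO (SE 0.73) and -0.41 in AC (SE 0.85). Copb1, of the COPI coat of retrograde vesicles, gave the only COPI circRNA (mmu_circ_0001615). It had 7, 4 and 2 counts in control, 0 and 0 in AC and 0, 4 and 8 in UUO and was too low to be tested. The Wdfy hosts, of which Wdfy3 serves selective autophagy, had no tested circRNA; the Wdfy3 sum was tested and missed the threshold, with a log2 fold change of -0.39 in UUO (interval -1.59 to 0.81, edgeR adjusted p = 0.776) and 0.62 in AC (interval -0.66 to 1.90, adjusted p = 0.702). In UUO it lay below AC without overlap, by -1.01 on the log2 scale (interval -2.31 to 0.30, adjusted p = 0.819).

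With counts summed per host, 33 of the 58 trafficking hosts passed the filter among 1185 hosts tested. Of these, 0 differed in UUO against control, where 6.5% of all tested hosts did, 0 in AC against control, where 3.46% of all did, and 0 in UUO against AC, where 0% of all did. The unadjusted edgeR p was under 0.05 for 0, 5 and 4 hosts, against 19.5%, 15% and 5.99% of all tested hosts. With Snx29 counted in, 1 of 34 hosts was called in UUO and 1 of 34 in AC, the latter lost without AC replicate 1 (edgeR adjusted p = 0.0542). DESeq2 and limma-voom also called 0 in each, with 0, 3 and 3 hosts at an unadjusted p under 0.05 in DESeq2 and 3, 3 and 2 in limma-voom. For either method the share of all tested hosts at such a p was not computed. Groups did not overlap for 5 hosts in UUO against control, 9 in AC against control and 8 in UUO against AC, where 25.1%, 31.6% and 25.3% of all tested hosts did not. The 5 hosts with an unadjusted edgeR p under 0.05 in AC, named after their values were seen, were Vps53, Vps41, Snx5, Vps13b and Vps45. Snx5 was the only one of them with a positive value. The log2 fold change was -1.24 for Vps41 (SE 0.44, adjusted p = 0.150) and -0.86 for Vps45 (SE 0.38, adjusted p = 0.283). The 4 in UUO against AC were Vps53, Eps15l1, Vps13b and Exoc5, with -1.003 for Eps15l1 (SE 0.40, adjusted p = 0.797). Exoc5 was tested only through UUO, where it is high, so its place among the 4 is a description. The same holds for Exoc5 among the hosts without overlap in both UUO comparisons. Sec24a, without overlap in UUO against AC, needed both control and AC to be tested.

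Members without a tested circRNA could still be at 0 in a whole group. A group at 0 with 10 or more counts in another was seen for 12 of 153 members, 7.84% against 4.85% of all listed circRNAs. The Vps8 circRNA mmu_circ_0006156 had 4, 6 and 1 counts in control and 0 in all 5 injured libraries, and the Snx6 circRNA mmu_circ_0004074 had 5, 5 and 0 in control and 0 in the injured libraries. At 0 in AC but present in UUO were circRNAs of Exoc5 (mmu_circ_0000532, 15 counts in UUO), Vps13a (mmu_circ_0007617, 12), Stx17 (mmu_circ_0011655, 11), Vps53 (mmu_circ_0003371, 10), Copb1 (12) and Snx1 (mmu_circ_0015802, 6, with 11 in control). At 0 in UUO was Ap2a2 (mmu_circ_0013997, 11 counts in AC and 5 in control). The Vps13c circRNA mmu_circ_0015820 had 11 counts, all in AC replicate 2. A Trappc9 circRNA (mmu_circ_0005758) had 10 counts in UUO replicate 1 and 1 in AC replicate 2, and a Snx5 circRNA (mmu_circ_0001083) had 10 in AC replicate 1 and 5 in UUO replicate 1, both with 0 in control. AC holds 2 libraries, so a 0 there rests on less depth, and a group total of 0 allows up to 3 counts by counting error alone.

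Partners of the same machinery, from a list of 204 genes covering clathrin and dynamin, endocytic receptors, early and recycling endosomes, the Golgi, ER exit and SNARE partners, gave 162 listed circRNAs of 61 hosts, 43 of them tested. Of these 43, 0 passed as higher and 0 as lower in UUO, in AC or in UUO against AC with edgeR, DESeq2 or limma-voom, where 4.35%, 3.33% and 0% of all tested circRNAs passed in edgeR. An unadjusted edgeR p under 0.05 was found for 3, 2 and 2 of the 43, against 15.5%, 14.1% and 5.57% of all tested. In UUO 20 of 43 lay below 0 with a median of 0.081, against 49.4% and a median of 0.016 over all tested; in AC 22 of 43 did with a median of -0.039, against 50.6% and -0.015. The tested endosome hosts included Rabep1, an effector of Rab5, and Zfyve9, an endosomal anchor of SMAD proteins, and the tested receptor hosts were Lrp2, which encodes megalin, and Lrp6, a Wnt co-receptor.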

How the data were processed

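The authors deposited 2 tables that list circRNAs by circBase identifier with a source transcript and host symbol. One gives raw counts for each library, per the file headers and the whole-number values. The other is a normalized signal table, deposited by the authors; its values equal the counts over a constant that differs by library (8718 to 11941; 100% were whole within 0.01 when multiplied back). What that constant stands for is not stated, so it served only as an alternative library size. HISAT2, StringTie and mm9 are named, per the submitters' processing notes. The caller of circular junctions, and its handling of length or of reads shared between circRNAs of a host, was not given in the sources used here, so levels of different circRNAs are ordered by count, with no allowance for length.

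Counts were tested with edgeR 4.0.16 (R 4.3.3; filterByExpr with a minimum count of 10 and a total of 15, TMM factors, glmQLFTest, all 8 libraries in 1 fit of 3 groups), once per circRNA and once with counts summed per host before the filter, leaving out 32 rows without a host. CPM use the effective library sizes of that fit. Standard errors come from the size of the log2 fold change divided by the root of the F statistic. Intervals use the total degrees of freedom of the test, residual plus prior. DESeq2 1.42.0, limma-voom 3.58.1, other scalings, no filter, a replicate term and each library left out were alternatives. The code was tested on simulated data. Intervals cover these libraries only, and the floor of 3 counts covers counting error only.

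Named circRNAs were those called in any comparison, the 4 highest and 4 lowest log2 fold changes of each, the 8 with the highest mean CPM, the highest of each class, the 3 hosts with most tested circRNAs (ties by count), and members at 0 in a group with 10 or more counts in another. The Vps41, Snx29 and leading Snx13 circRNAs and hosts beyond those 3 were named after their values were seen. The members, lists and rules were chosen with earlier results of these data known. A planned permutation test of the members' share of counts is therefore not given.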

Additional observations from a re-analysis of the deposited data

How the results depend on the processing

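The counts of called members, 0 in each comparison for circRNAs and for hosts, were 0 under each alternative run: no filter, DESeq2 size factors, the deposited constant as library size, DESeq2, limma-voom, only the 2 groups compared, a replicate block and each of the 8 libraries left out. Counting in Snx29, chosen after seeing the data, gave 1 circRNA and 1 host in UUO against control, 1 circRNA and 1 host in AC against control and 0 in UUO against AC. Without Snx29 the lowest adjusted p of any member under any of these was 0.0681, for the Sec31a sum in AC against control without AC replicate 2; there the AC arm is 1 library, with 0 Sec31a counts, assumed to vary like the other groups. With the deposited constant the median of all tested circRNAs moved to -0.26 in UUO and -0.34 in AC, and that of the members to -0.43 and -0.70. Under it 32 of 41 members lay below 0 in each, against 62.3% of all tested in UUO and 64.7% in AC. The difference in the members' share of counts, -0.16 percentage points in UUO and -0.139 in AC, kept its sign with each library left out. It ran from -0.228 to -0.0687 in UUO and from -0.207 to -0.0475 in AC. Size factors and the choice of test do not enter this share, so they could not change it.

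The replicate block, with the title's replicate number as a term, called 0 members in each comparison; under it the Snx29 circRNA had an adjusted p of 0.0571 in UUO and 0.0601 in AC. Same-numbered libraries did not deviate together, with correlations from -0.11 to 0.056, and 0 of 6 control and UUO libraries correlated best with their own number, so the numbers were not taken as pairs. The block turned 2 log2 fold changes in AC, to 0.080 for Exoc6 (mmu_circ_0007749) and 0.024 for Picalm (mmu_circ_0014464).

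Some values changed sign, most of them near 0 but also Snx7, Snx13 and Vps13d in AC and Sec31a (mmu_circ_0011916), each with a library left out. The cause was not tested. Snx13 values in this paragraph are those of mmu_circ_0003935. The deposited constant gave, in UUO, -0.0998 for Cog5, -0.20 for Picalm (mmu_circ_0014464) and -0.19 for Snx12, and -0.062 in AC for the leading Trappc9 circRNA. With only AC and control fitted, Picalm (mmu_circ_0014464) had 0.015 in AC, and in limma-voom Sec31a (mmu_circ_0011916) had 0.32 in UUO against AC. With 1 library left out in turn, values in UUO ran from -0.20 to 0.47 for Cog5, -0.090 to 0.13 for Picalm (mmu_circ_0014464), -0.23 to 0.36 for Snx12, -0.30 to 0.047 for Stx6 (mmu_circ_0000091), -0.47 to 0.18 for Vps13d, -0.30 to 0.020 for Vps45 (mmu_circ_0010954) and -0.23 to 0.068 for the Stx6 sum. In AC they ran from -0.78 to 0.26 for Exoc6, -0.32 to 0.19 for Picalm (mmu_circ_0014464), -6.59 to 0.56 for Sec31a (mmu_circ_0011916), -0.52 to 0.19 for Snx12, -1.0 to 1.90 for Snx13, -2.17 to 2.04 for Snx7, -0.41 to 0.60 for the leading Trappc9 circRNA, -0.053 to 0.93 for Vps13d, -0.77 to 0.15 for the Trappc9 sum and -0.45 to 0.19 for the Picalm sum. In UUO against AC, Sec31a (mmu_circ_0011916) ran from -1.99 to 5.33. Its values of -6.59 and 5.33 are fits against an AC group at 0 counts and are no bounds.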

Other observations

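Counts of 0 in a library whose group was otherwise covered (10 or more counts in each other library of the group) occurred for 8 trafficking circRNAs. They fell in AC replicate 1 for Sec31a (mmu_circ_0011916) and Vps13c, in AC replicate 2 for Ap4s1 and Snx5 (mmu_circ_0001083), in UUO replicate 1 for Itsn1, Sec31a (mmu_circ_0011917) and Vps13d (mmu_circ_0011400), and in UUO replicate 2 for Stx6 (mmu_circ_0008281). Among all listed circRNAs there were 209 such cases in 187 circRNAs. No control library held a case among the trafficking circRNAs; the AC group, with 2 libraries, meets the condition more easily than the groups of 3.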
